A study of Mus musculus with 106 samples.

Results

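Parvalbumin (PV) neurons of the cerebrum were profiled in mice with a Huntington's disease (HD) mutation and in littermate controls, through mRNA bound to tagged ribosomes. The libraries described here are those labelled with the cell type PV, the tissue Cerebrum and the preparation RiboTag IP, and there are 11 of them among the 106 libraries of the series. PV neurons are fast-spiking GABAergic interneurons that inhibit the cell bodies and axon initial segments of their targets, and they keep up high firing rates through Kv3 potassium channels, a fast calcium buffer and a fast synaptotagmin. In HD, an expanded CAG repeat in *Htt* affects striatal projection neurons early, while glia and cortical cells are altered as well. A RiboTag immunoprecipitation (IP) pulls down ribosomes with a haemagglutinin tag on a ribosomal protein, which is expressed only in cells with Cre recombinase, although RNA of other cells in the homogenate is carried over to some degree.

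The study crossed HD mice of the 129S4 strain with RiboTag and Cre driver lines to compare how neuron types respond to the mutation. Total RNA ("Input") was taken from the same homogenates. The HD group carried 1 expanded and 1 wild-type *Htt* allele, and the controls carried wild-type alleles only. All PV mice carried the RiboTag allele and a Cre allele driven from *Pvalb*, were about 9 months old, and gave cerebral hemispheres without treatment. There were 6 control and 5 HD mice with 1 library each, and 2 duplicate IPs were pooled per mouse. The Cre driver follows *Pvalb* transcription wherever it is active in the cerebral block, so cortical, hippocampal, striatal and other PV+ cells are mixed, and the labels give no sex. A single HD library was re-sequenced at another read length, and for that library the sequencing run and the genotype cannot be told apart.

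Counts assigned to mouse genes ranged from 23256772 to 47869606 in the control IPs, with a median of 31923772. HD replicates 1, 2, 3 and 5 had 32941857, 35776088, 36313896 and 52739812 counts, and the re-sequenced HD library had 107753586, the deepest of the 11. Total RNA of the PV line came from 3 control and 3 HD mice, with 21905221 to 47574064 counts per library. Levels are given below as CPM, counts scaled to a common library size, after normalization by the trimmed mean of M values (TMM).

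Some libraries stood apart before any comparison between genotypes. HD replicate 3 and control replicate 2 held the most transcripts of the cerebellum, which was dissected away from the cerebral block. The granule cell receptor subunit *Gabra6* was at 86.7 CPM in HD replicate 3 and 27.9 CPM in control replicate 2, against 0.0544 to 3.3 CPM in the other 9 libraries. The Purkinje cell gene *Pcp2* was at 180 and 86.2 CPM in the same libraries, and the granule cell gene *Cbln3* at 224 and 99.4 CPM. Smaller amounts were present in control replicates 6 and 4, with *Pcp2* at 40.5 and 16.8 CPM and *Cbln3* at 19.4 and 14.2 CPM, against at most 3.1 CPM of *Pcp2* in the remaining libraries. Summed over 11 cerebellar genes, the level was 4911 CPM in HD replicate 3 and 2228 CPM in control replicate 2, and between 637 and 1167 CPM in the rest. Control replicate 6 and HD replicate 2 were low in long transcripts, taken as genes in the top quartile of total exon length. These genes lay at a median log2 deviation of −0.1442 and −0.1775 from the mean of the other libraries of the same genotype. Control replicate 1 and HD replicate 3 lay the other way, at 0.1881 and 0.1834, each against the other libraries of its own genotype. Counts of the Y-linked gene *Ddx3y* were above 0 in 2 of 6 control and 3 of 5 HD libraries, so both sexes were present in both groups. The values without these libraries are given with the counts of called genes below.

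The markers of the labelled cell type were present and enriched in every IP. The calcium buffer parvalbumin (*Pvalb*, ENSMUSG00000005716.16, chromosome 15 of GRCm38, 78191114 to 78206400) was at 506 to 798 CPM in the 11 IPs, against 75.3 to 129 CPM in total RNA of the same line. The fast-spiking potassium channel subunit *Kcnc2* was at 184 to 399 CPM in the IPs and 19.5 to 69.7 CPM in total RNA, and the fast vesicle calcium sensor *Syt2* at 836 to 1121 and 133 to 238 CPM. All 3 markers had higher levels in every IP than in any total RNA library, with log2 ratios of 2.71, 2.64 and 2.33. Markers of other cells were reduced but none of them was at 0 in any PV+ IP. The myelin glycoprotein *Mog* was at 13.2 to 24.7 CPM in the IPs and 112 to 154 CPM in total RNA, and the microglial gene *Tmem119* at 2.6 to 6.19 and 32 to 53.2 CPM. Other markers were reduced less or not at all, such as the astrocytic water channel *Aqp4* with a log2 ratio of −0.33, while the subcortical glutamate transporter gene *Slc17a6* was enriched with 1.28.

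To separate the RNA of PV+ neurons from RNA carried over, each protein-coding gene was sorted by its log2 ratio of PV+ IP to total RNA of the same line. Of 14791 genes tested, 2453 (16.6%) were enriched, with a log2 ratio of at least 1 and an adjusted p of at most 0.05 in the quasi-likelihood test of edgeR with Benjamini-Hochberg adjustment. The same test put 2244 genes (15.2%) in the depleted class, with a log2 ratio of at most −1. Only the genes that also passed the count filter in the IPs alone enter the comparison of genotypes, which had 2453 enriched, 2074 depleted and 10085 other genes, and 101 without a class. Enrichment is not the same as origin: a gene that glia and PV+ neurons both express can fall in any class.

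The first question was which genes differ between HD and control mice in PV+ IPs, and whether they belong to the neurons that were tagged. Few genes passed edgeR, all of them were lower in HD mice, and none of these was enriched in the IP. By the quasi-likelihood test of edgeR with Benjamini-Hochberg adjustment, 6 of 14713 genes (0.0408%) passed, 4 of them depleted and 2 in neither class. DESeq2 called 42 genes (0.285%), 38 lower and 4 higher, and these included the 6 genes of edgeR. Of the 38 lower genes, 22 were depleted from the IP, 15 were in neither class, and 1 was enriched. The median log2 fold change of all genes was 0.00.

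The asymmetry was also present without a correction for the number of tests. At an unadjusted p under 0.05, edgeR had 500 genes (3.4%) lower and 147 (0.999%) higher in HD mice. Among the depleted genes, 195 (9.4%) were lower and 15 higher, against 35 lower and 30 higher among the enriched genes. The same HD IPs entered the classes, so a gene low in them also has a lower ratio to total RNA. Control libraries alone gave 2315 enriched and 2179 depleted genes, but the fold changes were not sorted by those classes. For 72 genes (0.489%) all 5 HD libraries lay below all 6 controls, and for 17 genes (0.116%) all lay above. Of the 72 genes, 31 were depleted (1.49% of that class) and 3 were enriched (0.122%). For enriched genes, edgeR called 0, with 65 at an unadjusted p under 0.05, and DESeq2 called 1. Fewer glial cells or glial RNA in the homogenate, less RNA per cell, and less carry-over into the IP cannot be told apart for depleted genes.

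**Figure D1:**
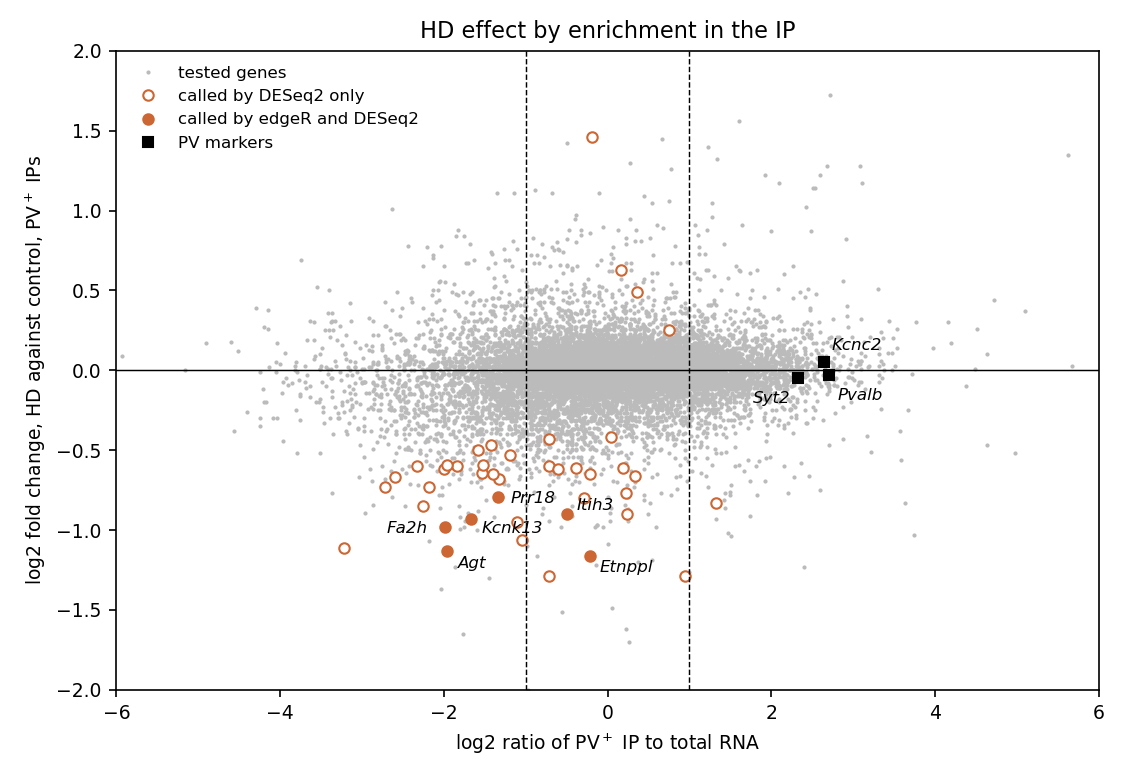
Each point is a protein-coding gene, with the log2 ratio of PV+ IP to total RNA on the x axis and the log2 fold change of HD (n = 5) against control (n = 6) PV+ IPs on the y axis; dashed lines mark log2 ratios of −1 and 1, and 6 genes lie outside the axes. The 6 genes called by both tools lie below 0 and left of the upper dashed line, while *Pvalb*, *Kcnc2* and *Syt2* lie near a fold change of 0 at ratios of 2.33 to 2.71.

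The count of called genes changed when single libraries were left out and when depth was lowered, and the cause was not tested. With all libraries thinned to the lowest total, edgeR called *Itih3* alone. Without control replicate 1, control replicate 2 or HD replicate 3, edgeR called 0 genes, with 545, 616 and 597 genes at an unadjusted p under 0.05. Control replicate 1 and HD replicate 3 are also the libraries highest in long transcripts, and the part of transcript length in the count was not tested. Without control replicates 3, 4, 5 and 6 it called 2, 1, 2 and 1 genes, and without HD replicates 1, 2 and 5 it called 1, 2 and 5. Without the re-sequenced library it called 4 genes, of which 2 were among the 6. With both libraries that held cerebellar transcripts left out, a choice made after seeing the data, it called 0 genes and had 501 at an unadjusted p under 0.05. Without both libraries low in long transcripts, likewise chosen after seeing the data, *Itih3* and *Agt* were called. All calls in these fits were of genes lower in HD mice.

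Summed levels of glial genes were also added to the model. When the log2 summed CPM of an oligodendrocyte and myelin list was added as a covariate, edgeR called 0 genes, with 315 at an unadjusted p under 0.05. With the astrocyte list in its place, a choice made after seeing the data, it called 0 genes, with 436 at an unadjusted p under 0.05. Both sums differ between the genotypes, so the covariate and the genotype are partly the same measure in these fits. The called genes kept their direction with smaller fold changes. With the oligodendrocyte list *Itih3*, *Agt*, *Fa2h* and *Prr18* were at −0.61, −0.59, −0.53 and −0.45 on the log2 scale, and with the astrocyte list at −0.70, −0.86, −0.76 and −0.45. *Kcnk13* was at −0.82 and −0.84 and *Etnppl* at −0.94 with either list, closer to their values of −0.93 and −1.16 without a covariate. *Fa2h* is itself a member of the oligodendrocyte list. Whether glial RNA carries these differences was not tested. With log2 CPM of *Xist* as a covariate 1 gene was called, and the same gene, *Itih3*, was called with *Ddx3y*, the latter added after seeing the data.

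Of the genes that passed, *Itih3* kept its call in the most fits. It encodes a heavy chain of the inter-alpha-trypsin inhibitor family, which binds hyaluronan in the extracellular matrix (ENSMUSG00000006522.17, chromosome 14 of GRCm38, 30908572 to 30923760). Control IPs had 64.4 to 88.1 CPM (median 76.1), and HD replicates 1, 2, 3 and 5 had 34.1, 47.8, 37.3 and 43.6 CPM, with 40.7 CPM in the re-sequenced library. The highest HD library was below the lowest control. *Itih3* fell with a log2 fold change of −0.90 (adjusted p = 0.0132 in the quasi-likelihood test of edgeR with Benjamini-Hochberg adjustment, SE 0.105). It was called in 8 of the 11 fits without 1 library, with log2 fold changes of −0.96 to −0.85, and lost the call without control replicate 1, control replicate 2 or HD replicate 3 with adjusted p reaching 0.0614 in the same test. Its ratio to total RNA was −0.50 on the log2 scale, and in total RNA of the line it was at 101, 83.9 and 118 CPM in controls and 53.3, 51.1 and 64.1 CPM in HD mice.

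The next called genes, *Agt* and *Etnppl*, are transcripts of astrocytes. *Agt* encodes angiotensinogen, the precursor of the angiotensin peptides, which astrocytes make in the brain (ENSMUSG00000031980.10, chromosome 8, 124556534 to 124569706). It was at 34.6 to 54.1 CPM in controls (median 41.1), and at 16.3, 26.6, 13.6 and 20.8 CPM in HD replicates 1, 2, 3 and 5 and 18.9 CPM in the re-sequenced library. Every HD library lay below every control, and *Agt* fell by 1.13 on the log2 scale (adjusted p = 0.0349 in the quasi-likelihood test of edgeR with Benjamini-Hochberg adjustment, SE 0.165). It was depleted from the IP with a log2 ratio of −1.96. *Etnppl* encodes a lyase that breaks down phosphoethanolamine (ENSMUSG00000019232.14, chromosome 3, 130617448 to 130637521). Controls were at 8 to 10.3 CPM (median 9.44), and the HD libraries in the same order at 3.58, 2.53, 3.44, 5.85 and 4.86 CPM. The groups did not overlap, and the log2 fold change was −1.16 (adjusted p = 0.0437 in the same test, SE 0.178). Without 1 library, the log2 fold changes were −1.27 to −1.03 for *Agt* and −1.32 to −1.04 for *Etnppl*. *Agt* kept its call only without HD replicate 2 and *Etnppl* only without HD replicate 5 among these fits, with adjusted p reaching 0.151 and 0.189 in the same test.

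*Fa2h* and *Prr18* are transcripts of oligodendrocytes. *Fa2h* makes the hydroxylated fatty acids of myelin lipids (ENSMUSG00000033579.16, chromosome 8, 111345135 to 111393824). Its level was 14.3 to 23.6 CPM in controls (median 17), and 8.47, 8.38, 7.25 and 11 CPM in HD replicates 1, 2, 3 and 5 and 9.67 CPM in the re-sequenced library. All HD libraries were lower than all controls, and *Fa2h* fell by 0.98 on the log2 scale (adjusted p = 0.0349 in the quasi-likelihood test of edgeR with Benjamini-Hochberg adjustment, SE 0.146). *Prr18* encodes a proline-rich protein of myelinating cells (ENSMUSG00000055945.8, chromosome 17, 8337459 to 8344113). It was at 23.7 to 34.6 CPM in controls (median 31.1), and at 17.1, 16.8, 15.6, 17.4 and 20.5 CPM in the HD libraries in the same order. Again no HD library reached the controls, and the log2 fold change was −0.79 (adjusted p = 0.0349 in the same test, SE 0.11). The log2 fold changes without 1 library were −1.07 to −0.89 for *Fa2h* and −0.84 to −0.74 for *Prr18*. *Fa2h* stayed past the threshold only without HD replicate 5, and *Prr18* only without control replicate 3 or the re-sequenced library. In the other fits without 1 library the adjusted p of both reached 0.151 in the same test.

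*Kcnk13* encodes a background potassium channel that in the brain is best known from microglia (ENSMUSG00000045404.16, chromosome 12, 99964499 to 100062682). It was low in abundance, at 4.66 to 6.09 CPM in controls (median 4.95), and at 3.09, 2.37, 2.28 and 3.21 CPM in HD replicates 1, 2, 3 and 5 and 2.63 CPM in the re-sequenced library. The groups did not overlap, and the log2 fold change was −0.93 (adjusted p = 0.0349 in the quasi-likelihood test of edgeR with Benjamini-Hochberg adjustment, SE 0.134). Among the fits without 1 library, where its log2 fold change was −0.87 or lower, it was called only without HD replicate 5, with adjusted p reaching 0.151 in the same test. The defining microglia markers had no such difference: *Tmem119* was at 2.77 to 6.19 CPM in controls and 2.6 to 4.65 CPM in HD mice, and *P2ry12* at 1.61 to 3.48 and 1.2 to 4.56 CPM.

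**Figure D2:**
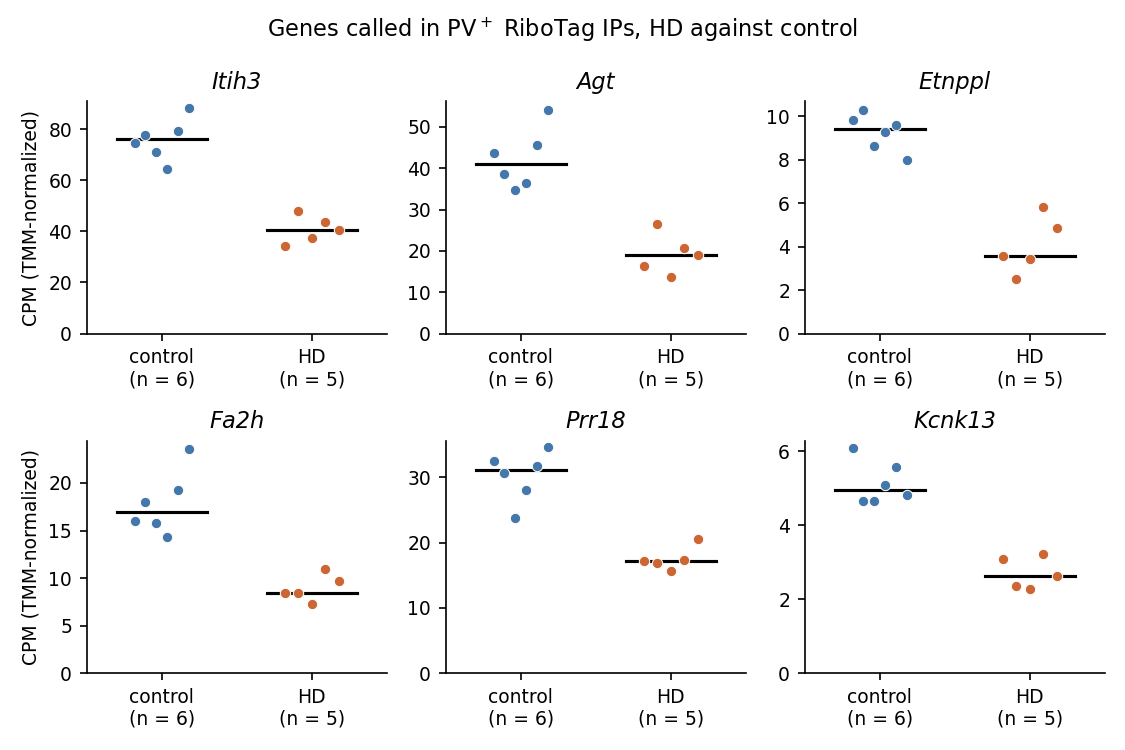
TMM-normalized CPM of the 6 called genes in each PV+ IP, controls (n = 6) in blue and HD mice (n = 5) in orange, with bars at the group medians. For each gene the HD points lie below all control points, as for *Itih3* with medians of 76.1 and 40.7 CPM.

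Other astrocyte genes were lower in HD mice without passing edgeR. Astrocytes clear glutamate and GABA from the synapse and buffer potassium, and several genes for these functions were among the DESeq2 calls. The glutamate transporter *Slc1a2* was at 990 to 1463 CPM in controls (median 1181), and at 578, 542, 678 and 708 CPM in HD replicates 1, 2, 3 and 5 and 985 CPM in the re-sequenced library, the only HD library near the controls. Its log2 fold change was −0.77 (adjusted p = 0.18 in the quasi-likelihood test of edgeR with Benjamini-Hochberg adjustment, SE 0.153), and without the re-sequenced library it passed at −0.91 (adjusted p = 0.0292 in the same test). The GABA transporter *Slc6a11* was at 81.3 to 115 CPM in controls and 40.2 to 79.9 CPM in HD mice, a log2 fold change of −0.73. The inward-rectifier potassium channel *Kcnj10* was at 250 to 371 CPM in controls and 150 to 223 CPM in HD mice (log2 fold change −0.80, adjusted p = 0.0696 in the same test). In these 3 genes no HD library reached the lowest control. The cytokine gene *Il33* was at 18.1 to 30.5 CPM in controls and 8.06 to 15.6 CPM in HD mice, a log2 fold change of −1.06, and it too passed edgeR without the re-sequenced library, at −1.22. The growth factor receptor *Fgfr3* had a log2 fold change of −0.62 with overlapping groups. With the oligodendrocyte list as a covariate *Slc1a2*, *Slc6a11*, *Kcnj10*, *Il33* and *Fgfr3* were at −0.58, −0.36, −0.54, −0.83 and −0.04. With the astrocyte list *Kcnj10* was at −0.34 and *Il33* at −0.59, while *Slc1a2*, *Slc6a11* and *Fgfr3* are members of that list, so the covariate does not test them.

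Across whole lists the same direction held for astrocytes. Of 30 astrocyte genes, 29 had a log2 fold change below 0, with a median of −0.33 against 0.00 for all genes, and 25 were depleted from the IP. For these genes edgeR called 0, with 16 lower and 0 higher at an unadjusted p under 0.05, and DESeq2 called 3, all lower. Of all genes, 3.4% were lower at that p in edgeR and DESeq2 called 0.258% as lower. Summed over the list, controls held 4940 to 6428 CPM (median 5855), and HD replicates 1, 2, 3 and 5 held 3962, 4409, 4744 and 4538 CPM and the re-sequenced library 5004 CPM. Control replicate 3, the lowest control, was below that last library. A list of 10 genes for glial neurotransmitter uptake, most of them also in the astrocyte list, had a median of −0.36. For this list edgeR called 0, with 7 lower at an unadjusted p under 0.05, and DESeq2 called 3 as lower. With the oligodendrocyte list as a covariate the astrocyte median was 0.02 and the uptake median −0.24, so the direction of the astrocyte list did not hold there. With the astrocyte list as a covariate, the uptake median was 0.02 and the astrocyte median −0.06. That list holds most of the uptake genes, *Glul*, *Slc1a2*, *Slc1a3* and *Slc6a11* among them, so the covariate does not test them. The uptake sums were 3222 to 4193 CPM in controls and 2192 to 3163 CPM in HD mice and did not overlap. The most abundant gene of both lists per length was glutamine synthetase, *Glul*, at a median of 985 CPM in controls and 668 CPM in HD mice. Its groups overlapped, and its log2 fold change was −0.53. *Aqp4*, *Slc1a3* and *Gja1*, the defining astrocyte markers, had overlapping groups, with *Aqp4* at 24.4 to 62.9 CPM in controls and 25.4 to 61.8 CPM in HD mice. How much astrocyte RNA adds to each called gene was not tested beyond the covariate above.

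Most oligodendrocyte genes had log2 fold changes below 0 as well, with overlapping sums. Of 34 oligodendrocyte and myelin genes, 31 had a log2 fold change below 0 (median −0.27), and 26 were depleted from the IP. For this list edgeR called *Fa2h* alone, with 14 lower at an unadjusted p under 0.05, and DESeq2 called 4, all lower. The shares of all genes were 3.4% lower at that p in edgeR and 0.258% called lower by DESeq2. The direction of the median did not hold with a covariate, at 0.05 with the astrocyte list. It was 0.15 with the oligodendrocyte list itself, which holds the level of these genes. The summed level was 2675 to 3956 CPM in controls (median 3536), and 2363, 2677, 2163 and 2764 CPM in HD replicates 1, 2, 3 and 5 and 2543 CPM in the re-sequenced library. Control replicate 3 was again the lowest control, and HD replicates 2 and 5 were just above it. The carbonic anhydrase *Car2* was at 104 to 141 CPM in controls and 81.1 to 92.7 CPM in HD mice, a log2 fold change of −0.53. The myelin vesicle protein gene *Mal*, chosen after its values were seen, had −0.73 with overlapping groups. Myelin basic protein, *Mbp*, was at 580 to 1117 CPM in controls and 392 to 682 CPM in HD mice, and its log2 fold change of −0.52 did not pass in either tool. *Mog* overlapped almost fully, at 14.2 to 24.7 CPM in controls and 13.2 to 21.4 CPM in HD mice.

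Lists of other non-neuronal cells had smaller medians. The 9 oligodendrocyte precursor genes had a median log2 fold change of −0.14 and 20 microglia genes −0.11, with sums of 160 to 193 CPM for microglia in controls and 140, 154, 115, 193 and 194 CPM in HD replicates 1, 2, 3 and 5 and the re-sequenced library. HD replicate 3 was the lowest of all libraries for microglia, and the last 2 were as high as the highest control. The median was −0.09 for 18 endothelial and mural genes and 0.06 for 13 ependymal and choroid plexus genes. Over these 4 lists neither edgeR nor DESeq2 called a gene. At an unadjusted p under 0.05 edgeR had 1 lower microglia and 1 lower endothelial or mural gene. These counts lie near the share of all genes lower at that p, 3.4%. Single libraries moved these small medians. For microglia it was −0.01 without HD replicate 3 and −0.21 without HD replicate 5, and for precursors −0.05 without HD replicate 3 or control replicate 6 and −0.22 without the re-sequenced library. With the oligodendrocyte and the astrocyte list as a covariate the medians were above 0, at 0.33 and 0.22 for microglia, 0.23 and 0.07 for precursors and 0.14 and 0.18 for endothelial and mural genes. The most abundant genes per length were *C1ql1* among the precursor genes, *Slc2a1* among the endothelial and mural genes and *Ttr* among the ependymal and choroid plexus genes.

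**Figure D3:**
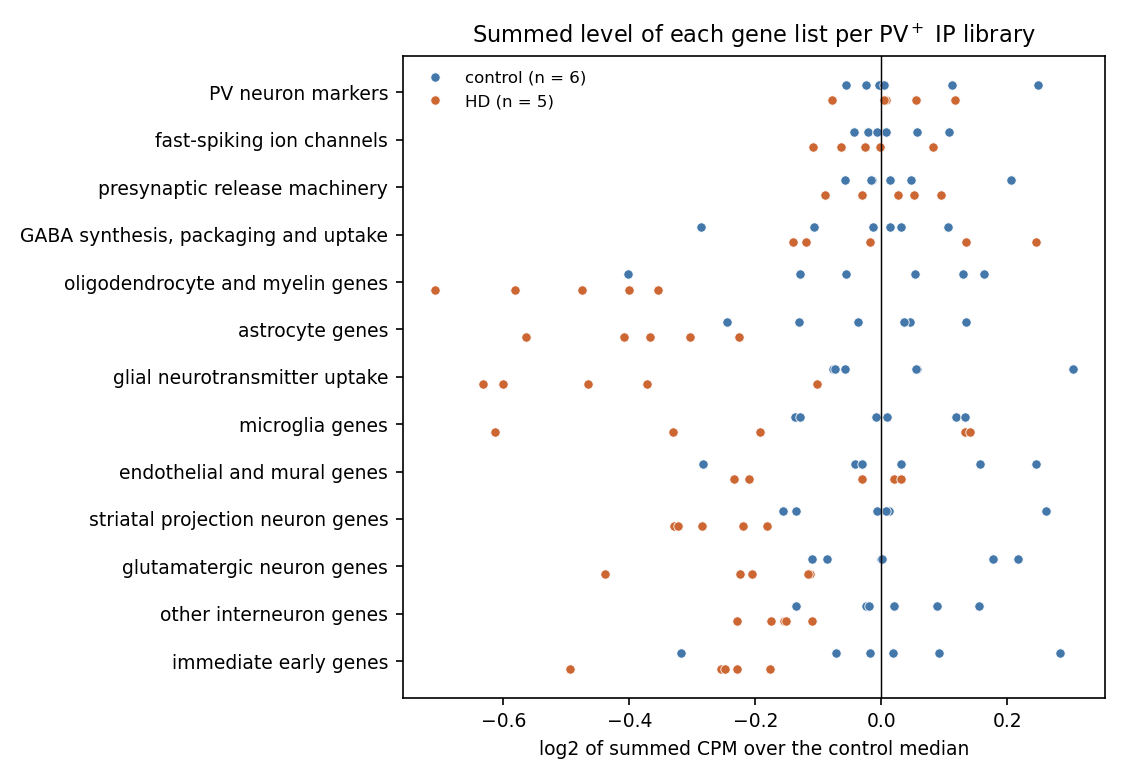
For 13 gene lists, each point is the log2 of a library's summed CPM over the control median, with controls (n = 6) in blue and HD mice (n = 5) in orange. The HD points lie left of the controls for glial neurotransmitter uptake and striatal projection neuron genes, while those of PV neuron markers lie among the controls except for HD replicate 5, just below them.

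Genes of striatal projection neurons, the cells most affected in HD, had lower sums in every HD library than in any control. These cells do not express *Pvalb*, and their genes were mostly depleted from the IP or in neither class. Of 20 genes, 18 had a log2 fold change below 0, with a median of −0.33 and −0.39 in total RNA. For these genes edgeR called 0, with 13 lower at an unadjusted p under 0.05, and DESeq2 called 4, all lower. Among all genes 3.4% were lower at that p in edgeR and 0.258% were called lower by DESeq2. Without the libraries that held cerebellar transcripts, the choice made after seeing the data, the median was −0.41. The summed level was 1624 to 2169 CPM in controls and 1441, 1554, 1595 and 1486 CPM in HD replicates 1, 2, 3 and 5 and 1447 CPM in the re-sequenced library, so no HD library reached the controls. The most abundant gene per length was the calmodulin-binding *Pcp4*. It was at 288 CPM in HD replicate 3, the library with the most cerebellar transcripts, against 121 to 166 CPM in the other HD libraries. With a covariate the list median was −0.08 (oligodendrocyte list) and −0.12 (astrocyte list).

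Single genes of these neurons differed in how far the groups parted. The dopamine receptor *Drd2* was at 22 to 37.2 CPM in controls (median 26.6), and at 16.5, 16.4, 13.3 and 19.7 CPM in HD replicates 1, 2, 3 and 5 and 18.9 CPM in the re-sequenced library, without overlap. The adenosine receptor *Adora2a*, chosen as a marker of the same cells, was at 14.2 to 28.8 CPM in controls and 7.89 to 14.8 CPM in HD mice, where HD replicate 5 overlapped the controls (log2 fold change −0.85, adjusted p = 0.396 in the quasi-likelihood test of edgeR with Benjamini-Hochberg adjustment). The leucine-rich repeat gene *Lrrc10b* (ENSMUSG00000090291.3, chromosome 19, 10455371 to 10457473) was at 17.6 to 32.1 CPM in controls and 10.2, 12.7, 11.4, 15.9 and 11.8 CPM in the HD libraries in the same order. It had no overlap and a log2 fold change of −0.95 (adjusted p = 0.0584 in the same test, SE 0.153), and passed without HD replicate 5 at −1.06. In total RNA its log2 fold change was −0.83 and passed (adjusted p = 0.0169 in the same test). *Drd1* was at 18.7 to 29.5 CPM in controls and 15.6 to 21.8 CPM in HD mice. With the oligodendrocyte list as a covariate *Adora2a* was at −0.01, *Drd2* at −0.28 and *Lrrc10b* at −0.48. The phosphodiesterase gene *Pde10a* and the opioid precursor gene *Penk* were at −0.56 and −0.66 in that fit, against −0.66 and −0.57 without a covariate. With the astrocyte list *Adora2a*, *Drd2* and *Lrrc10b* were at −0.55, −0.42 and −0.60, and *Pde10a* and *Penk* at −0.21 and −0.15.

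Lists of excitatory and other neurons differed in direction and size. Of 14 glutamatergic neuron genes, 12 were below 0 (median −0.21), with sums of 3053 to 3829 CPM in controls and 2429 to 3046 CPM in HD mice. The sums did not overlap. The most abundant gene per length, the kinase *Camk2a*, was at 1647 to 2227 CPM in controls and 1284 to 1640 CPM in HD mice (log2 fold change −0.34), again without overlap. Of 14 other interneuron genes, 13 were below 0 (median −0.13), with *Sst* the most abundant per length, and 12 midbrain and hindbrain neuron genes had a median of −0.36, with *Slc6a5* the most abundant. HD replicate 3 had the lowest sum of this last list, 46.7 CPM, against 86.9 to 171 CPM in the other HD libraries, and the median was −0.22 without it and −0.54 without the re-sequenced library. The 11 cerebellar genes, with *Itpr1* the most abundant per length, had a median of 0.62 with all libraries of −1.11 without HD replicate 3 and of 1.52 without control replicate 2, so their sign rests on HD replicate 3. All 23 immediate early genes, which follow recent activity, had a log2 fold change of 0.00 or below, with a median of −0.33. Their sums were 419 to 636 CPM in controls and 438, 371, 440 and 446 CPM in HD replicates 1, 2, 3 and 5 and 462 CPM in the re-sequenced library, with *Jun* the most abundant per length. In total RNA this list had a median of −0.25. With the oligodendrocyte and the astrocyte list as a covariate its median was −0.10 and −0.02, and that of glutamatergic genes −0.12 and 0.05. Over these 5 lists neither edgeR nor DESeq2 called a gene. At an unadjusted p under 0.05 edgeR had 12 lower immediate early genes, 3 lower midbrain or hindbrain, 2 lower glutamatergic and 1 lower other interneuron gene. The share of all genes lower at that p was 3.4%.

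The genes that define PV+ neurons had no shift in their median. All 21 PV neuron markers were enriched in the IP, 10 had a log2 fold change above 0 and 11 below, and the median was 0.00. For these genes edgeR and DESeq2 called 0, and edgeR had 0 at an unadjusted p under 0.05, against 4.4% of all genes. Without 1 library the median was −0.05 to 0.05, while it was −0.26 with the oligodendrocyte list and −0.15 with the astrocyte list as a covariate. Their sums were 8704 to 10746 CPM in controls and 9809, 9396, 9096 and 8568 CPM in HD replicates 1, 2, 3 and 5 and 9068 CPM in the re-sequenced library. The groups overlapped throughout. The most abundant gene per length was *Cplx1*, a complexin that clamps and times vesicle fusion, with medians of 2667 and 2521 CPM. *Pvalb* itself was at 506 to 760 CPM in controls (median 683), and at 674, 798, 557, 723 and 541 CPM in the HD libraries in the same order. *Kcnc2* was at 184 to 399 CPM in controls and 228 to 373 CPM in HD mice, where the lowest values belonged to the libraries low in long transcripts, control replicate 6 and HD replicate 2. *Syt2* was at 922 to 1121 CPM in controls and 836 to 1050 CPM in HD mice. A missed threshold does not show that their levels were equal.

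The machinery of fast firing and inhibition had small medians, with some HD libraries outside the range of the controls. The 23 fast-spiking channel genes had a median log2 fold change of −0.05, and 18 of them were below 0, with sums of 7157 to 7951 CPM in controls and 6845 to 7804 CPM in HD mice, where HD replicate 5 and the re-sequenced library were below every control. The Kv3 subunit *Kcnc1* was at 834 to 1009 CPM in controls and 791 to 865 CPM in HD mice. The median was 0.01 for 24 genes of presynaptic release and 0.07 for 11 genes of GABA synthesis, packaging and uptake, where *Gad1*, the GABA-making enzyme, was at 1458 to 2199 CPM in controls and 1692 to 2541 CPM in HD mice. The vesicular GABA transporter *Slc32a1* was at 519 to 635 CPM in controls and 531 to 701 CPM in HD mice. The median was −0.09 for 12 GABA-A receptor subunits, −0.09 for 18 glutamate receptors and −0.12 for 13 tested perineuronal net genes, the matrix that surrounds PV+ neurons, whose most abundant member per length was *Hapln4*. Over these 6 lists neither edgeR nor DESeq2 called a gene. At an unadjusted p under 0.05 edgeR had 2 lower and 1 higher channel genes. The matrix list and both receptor lists had 1 lower gene each. Of all genes, 3.4% were lower and 0.999% higher at that p. The GABA-A sum varied from 3525 to 8804 CPM among controls. HD replicate 5 and the re-sequenced library were also below the controls for perineuronal net genes (991 and 1005 CPM, lowest control 1069 CPM), as were HD replicates 1, 2 and 5 for glutamate receptors (2819, 2699 and 2651 CPM, lowest control 2841 CPM). For GABA synthesis HD replicates 1 and 3 were above the controls (5528 and 5967 CPM, highest control 5418 CPM). The perineuronal net median was −0.07 without HD replicate 2, that of glutamate receptors −0.01 without the same library, and that of GABA-A subunits −0.18 without control replicate 6 and −0.02 without HD replicate 2. With the oligodendrocyte list as a covariate the medians were −0.35 for GABA-A subunits, −0.21 for GABA synthesis, −0.20 for fast-spiking channels and −0.19 for glutamate receptors, and with the astrocyte list −0.03, −0.08, −0.07 and 0.10.

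An enriched gene that DESeq2 called was *Doc2g*, which encodes a calcium-sensor-like protein with C2 domains. It was at 9.15 to 19.7 CPM in controls (median 16.4), and at 8.59, 12, 7.28 and 7.96 CPM in HD replicates 1, 2, 3 and 5 and 8.55 CPM in the re-sequenced library. The groups overlapped, because control replicate 2 at 9.15 CPM was below HD replicate 2. The log2 fold change was −0.83 (adjusted p = 0.329 in the quasi-likelihood test of edgeR with Benjamini-Hochberg adjustment, SE 0.188). The sodium channel subunit *Scn4b*, chosen after its values were seen and also expressed in the striatum, was enriched and was at 527 to 639 CPM in controls and 404 to 556 CPM in HD mice, a log2 fold change of −0.33 that passed in neither tool. In total RNA of the cerebrum it fell by 0.84 (adjusted p = 0.000142 in the same test), with 325 to 347 CPM in controls and 148 to 189 CPM in HD mice of the PV line.

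Only 4 genes were higher in HD mice by DESeq2, and none of them by edgeR. *Tmc3*, a channel-like membrane protein gene, was near the filter, at 0.295 to 0.572 CPM in controls and 0.612, 1.28, 1.16 and 0.822 CPM in HD replicates 1, 2, 3 and 5 and 1.45 CPM in the re-sequenced library. All HD libraries were above the controls, with a log2 fold change of 1.46 (adjusted p = 0.138 in the quasi-likelihood test of edgeR with Benjamini-Hochberg adjustment). The following genes were chosen after their values were seen. The exporter gene *Abcc5* was at 98.6 to 109 CPM in controls and 117 to 131 CPM in HD mice, a log2 fold change of 0.25. Its groups did not overlap, while the choline dehydrogenase gene *Chdh* met the highest control at 6.78 CPM in HD replicate 5 and had a log2 fold change of 0.63. All 4 were in neither class.

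Further DESeq2 calls were lower in HD mice and in neither class. *Hrk*, a pro-apoptotic protein gene of neurons, was at 30.7 to 44.8 CPM in controls and 21.5 to 25.4 CPM in HD mice. *Lrig1*, an inhibitor of growth factor receptors, was at 36.4 to 54.1 CPM in controls and 27.5 to 33 CPM in HD mice. Both had no overlap, with log2 fold changes of −0.61 and −0.60. With the oligodendrocyte list as a covariate they were at −0.26 and −0.24, and with the astrocyte list at −0.40 and −0.34. The scarce transcripts *Itprid1* and *Slc4a11* had log2 fold changes of −1.29 each, at no more than 1.93 CPM in any PV+ IP, and *Slc4a11*, a membrane transporter gene, passed edgeR without control replicate 5, its lowest control at 0.847 CPM (log2 fold change −1.45).

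*Htt* itself was among the lower genes of DESeq2 (ENSMUSG00000029104.15). Controls had 87.2 to 116 CPM (median 103), and HD replicates 1, 2, 3 and 5 had 71.9, 81.4, 88.2 and 72.6 CPM, with 67.4 CPM in the re-sequenced library. HD replicate 3 was above the lowest control, and without 1 library the log2 fold change stayed between −0.48 and −0.37. The 16 genes of huntingtin and its partners had a median of −0.02, with *Kif5c* the most abundant per length and *Htt* the only gene of them that DESeq2 called. For this list edgeR called 0, with 2 lower at an unadjusted p under 0.05. Lists of cell stress and metabolism had small medians with all libraries. They were −0.06 for 22 heat shock and unfolded protein genes (most abundant per length *Hsp90ab1*), 0.01 for 85 nuclear oxidative phosphorylation genes (*Atp5a1*), 0.05 for 13 mitochondrially encoded genes (*mt-Co1*) and 0.03 for 84 cytosolic ribosomal protein genes (*Rplp1*). The mitochondrially encoded list depended on single libraries, at −0.15 without HD replicate 5, 0.26 without HD replicate 2 and −0.12 without control replicate 6 or the re-sequenced library. The ribosomal protein list ran from −0.06 without HD replicate 5 to 0.13 without HD replicate 3, and the nuclear oxidative phosphorylation list from −0.05 without control replicate 1 or HD replicate 2 to 0.09 without HD replicate 3. With the oligodendrocyte and the astrocyte list as a covariate the ribosomal median was 0.30 and −0.17, the nuclear oxidative phosphorylation median 0.13 and −0.28, and the mitochondrially encoded median 0.01 and 0.32. The 24 cholesterol synthesis genes had a median of −0.19, and 20 of them were below 0, with *Hmgcs1* the most abundant per length. Their median was −0.09 with the oligodendrocyte list and −0.07 with the astrocyte list as a covariate. For these last 5 lists neither edgeR nor DESeq2 called a gene. At an unadjusted p under 0.05 edgeR had 7 lower cholesterol synthesis genes, 2 lower heat shock genes and 1 higher oxidative phosphorylation gene. Over all genes 3.4% were lower and 0.999% higher at that p. The chaperone gene *Hspa8* was at 2376 to 3075 CPM in controls and 2504 to 3172 CPM in HD mice.

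The next question was whether the differences in the IP exceed those in the tissue. Total RNA of 3 cerebral Cre lines (18 libraries) had 25 of 14871 genes (0.168%) past the quasi-likelihood test of edgeR with Benjamini-Hochberg adjustment, 6 higher and 19 lower. Of the 6 genes called in the IP, *Fa2h* and *Kcnk13* also passed there, with log2 fold changes of −0.64 and −0.54, and the other 4 were at −0.76 to −0.31. All 6 thus had log2 fold changes below 0 in both preparations, but only *Fa2h* and *Kcnk13* passed in both. In total RNA of the 3 lines the astrocyte, uptake and oligodendrocyte lists had medians of −0.19, −0.17 and −0.14, against −0.33, −0.36 and −0.27 in the IPs. The microglia median was 0.05 (−0.11 in the IPs) and the glutamatergic median −0.02 (−0.21). That of striatal projection neuron genes was −0.39 (−0.33). These differences between medians were not tested. In total RNA of the PV line the groups of *Etnppl* and *Prr18* overlapped. The difference of the HD effect between IP and total RNA of the PV line was tested for 14791 genes, and edgeR called 0 (0%), with 269 at an unadjusted p under 0.05, and DESeq2 called 0, with 315. For *Itih3* the effect differed by −0.04 and for *Prr18* by −0.60 (IP minus total RNA), both with an adjusted p of 1 in the same test. Of the mice, 6 gave both libraries, and the line has 3 total RNA libraries per genotype.

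The last question was whether the HD effect in PV+ neurons differs from that in other inhibitory neurons of the cerebrum. Cerebral Gad2+ IPs (6 control, 6 HD) include PV+ cells as well as striatal projection neurons. SST+ IPs (5 control, 4 HD) come from the somatostatin interneurons. Mouse labels of some control SST+ IPs start with Z, and those of all other SST+ IPs start with BR. What these prefixes stand for is not stated, and for the Z mice prefix and genotype cannot be told apart. For PV+ against Gad2+ IPs, edgeR called 0 of 14626 genes (0%), with 473 at an unadjusted p under 0.05, and DESeq2 called 1, *Ddit4l*. For PV+ against SST+ IPs, edgeR called 0 of 14724 genes (0%), with 146 at an unadjusted p under 0.05, and DESeq2 called 1, *mt-Nd3*. This gene was at 0 in 4 of 6 control and 2 of 5 HD PV+ IPs, and in 5 of 5 control and 1 of 4 HD SST+ IPs. Both genes were chosen after their values were seen.

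*Ddit4l*, an inhibitor of growth signalling through mTOR, was lower in HD mice in both the PV+ and the Gad2+ IPs. In a joint normalization it was at 5.04 to 6.29 CPM in control and 2.85 to 4.62 CPM in HD PV+ IPs, against 10.8 to 13.9 and 2.42 to 5.26 CPM in Gad2+ IPs. HD libraries of both cell types reached similar levels, from control levels that lay apart. The HD effect differed by 1.33 (PV+ minus Gad2+, adjusted p = 0.0784 in the quasi-likelihood test of edgeR with Benjamini-Hochberg adjustment), and without HD replicate 3 it passed with 1.40 (adjusted p = 0.0336 in the same test). For the 6 called genes no difference of the HD effect passed against either cell type. In SST+ IPs, *Itih3* was at 66.7 to 97.6 CPM in controls and 44.9 to 57.6 CPM in HD mice, and *Agt* at 35 to 51 and 18.8 to 30.8 CPM. These groups did not overlap, nor did those of *Etnppl*, while *Fa2h*, *Prr18* and *Kcnk13* overlapped there. In Gad2+ IPs only *Etnppl* was free of overlap, at 1.55 to 5.23 CPM in controls and 0.221 to 1.46 CPM in HD mice. *Kcnk13* was at 5.63 to 8.49 CPM in control and 5.01 to 10 CPM in HD Gad2+ IPs, and its HD effect differed by −0.97 (PV+ minus Gad2+, unadjusted p = 0.000251, adjusted p = 0.906 in the same test).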

How the data were processed

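RNA bound to tagged ribosomes (RiboTag IP) and total RNA were sequenced as stranded poly(A) libraries with paired reads. The authors aligned the reads with STAR and quantified them with Salmon, and the deposited table holds expected counts per gene, not normalized, for GRCm38.p6 with an annotation release that is not stated. Of the deposited values, 8.57% were not whole, and counts were rounded. The 92 ERCC spike-ins were left out. Gene types and positions came from GENCODE M21, where 55141 of 55401 genes were found.

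Protein-coding genes with a mean count above 10 over the libraries of a fit were tested with edgeR 4.0.16 (quasi-likelihood, TMM, Benjamini-Hochberg adjustment) in R 4.3.3, and called at an adjusted p of at most 0.05. DESeq2 1.42.0 and limma 3.58.1 were alternatives. Tables and figures were made with Python 3.11.15, pandas 2.3.3, numpy 2.4.6 and matplotlib 3.10.9. Levels are CPM with TMM factors. The steps were tested on simulated data. Depth was 23256772 to 107753586 counts per PV+ IP, and every pair of replicates differed by more than counting error, with a chi-square per degree of freedom of 7.92 or more.

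The comparisons were HD against control in PV+ IPs, PV+ IP against total RNA of the same line with genotype as a covariate, and the difference of the HD effect between PV+ IPs and total RNA, Gad2+ IPs or SST+ IPs. Total RNA of the PV, Gad2 and vGluT2 lines was compared between genotypes with the line as a covariate. Genes named were those called by edgeR, the first 25 of the other 36 DESeq2 calls by edgeR p, the PV markers and *Htt*, the 3 most abundant genes of each of the 26 lists, and 8 further genes set in advance, most of them HD-associated in the study. Markers of other cell types were also set in advance. Other named genes were chosen after their values were seen. Some genes that these rules select are withheld and not reported here. The members and lists were chosen with earlier results of these data known, and lists are described without a test. Alternatives changed the tool, normalization, filter, gene types, dispersion, pairing, covariates, libraries and depth. Those with the astrocyte list or *Ddx3y* as a covariate, the same libraries as the block without it, and without either pair of libraries that stood apart were chosen after seeing the data.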

Additional observations from a re-analysis of the deposited data

Results flagged for a closer look

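In 162 groups of values for genes, lists and depth, the highest or lowest library was checked for a wide gap to the others of its group, and 22 stood apart. Chance gives about 1 in 20 groups such a gap, and genes of the same list share their libraries.

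Cerebellar transcripts account for 7 of these values. In control replicate 2, *Gabra6* was at 27.9 CPM (other controls 0.0841 to 3.3 CPM), *Cbln3* at 99.4 CPM (2.54 to 19.4 CPM) and the cerebellar list summed to 2228 CPM (673 to 1167 CPM). In HD replicate 3, *Gabra6* was at 86.7 CPM (other HD libraries 0.0544 to 0.43 CPM), *Pcp2* at 180 CPM (0.734 to 1.81 CPM), *Cbln3* at 224 CPM (0.734 to 2.45 CPM) and the list summed to 4911 CPM (637 to 841 CPM). HD replicate 3 was also high in *Penk* (69.8 CPM, others up to 37.6), *Ppp1r1b* (109 CPM, others up to 47.7) and *Pcp4* (288 CPM, others up to 166). These genes were studied for the striatum here, and at least *Ppp1r1b* is also made in cerebellar Purkinje cells. The sum for huntingtin and partner genes in HD replicate 3 was 4486 CPM against 3300 to 3570 CPM.

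Control replicate 6 was low in *P2ry12* at 1.61 CPM (others 2.9 to 3.48 CPM) and *Arpp19* at 44.9 CPM (70.3 to 83 CPM), and its striatal projection neuron sum was high at 2169 CPM (1624 to 1825 CPM). HD replicate 2 was low in *Kcnc2* at 228 CPM (335 to 373 CPM) and in the immediate early gene sum at 371 CPM (438 to 462 CPM), and high in *Doc2g* at 12 CPM (7.28 to 8.59 CPM). Control replicate 1 was high in *Glul* at 1357 CPM (891 to 1024 CPM) and in the glial uptake sum at 4193 CPM (3222 to 3534 CPM), and low in *Scn4b* at 527 CPM (608 to 639 CPM). *Camk2a* was at 1284 CPM in HD replicate 1 (1549 to 1640 CPM in the other HD libraries). The re-sequenced HD library had 107753586 counts, against 32941857 to 52739812 in the other HD libraries.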

How the results depend on the processing

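The count of 6 genes called in PV+ IPs kept within 1.5 times under DESeq2 size factors (6), no filter (7), edgeR's own filter (6), all gene types (5), the earlier form of the fit (5), a robust fit (7), limma voom (6), all cerebral IPs in one fit (5, of which 2 were among the 6) and without the re-sequenced library (4, of which 2 were). DESeq2 raised it to 42. It was 1 with *Xist* as a covariate, 1 with libraries thinned to the lowest total, and 0 with the oligodendrocyte list as a covariate. With alternatives chosen after seeing the data it was 0 with the astrocyte list and 1 with *Ddx3y* as a covariate, 0 without the libraries with cerebellar transcripts and 2 without those low in long transcripts. Without 1 library each it was 0 to 5. The cause was not tested.

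With the replicate number as a block, in 8 libraries with numbers that both groups hold, the replicate block left 0 genes, with 1153 at an unadjusted p under 0.05, and the same 8 libraries without the block also gave 0, with 1399. Residuals of control and HD libraries with the same number had correlations across genes of −0.00363, −0.257, −0.144 and 0.282, so the numbers do not pair mice, and genes are not independent replicates.

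With a log2 ratio of 2 in place of 1, 489 genes were enriched and 731 depleted. In total RNA, DESeq2 called 119 genes, the PV line alone 0 and the SST line added 109. For the difference between PV+ and Gad2+ IPs DESeq2 called 1 gene, and without 1 PV+ library each edgeR called 0 to 1. For SST+ IPs DESeq2 called 1, and edgeR 0 without any single PV+ library. The difference from total RNA stayed at 0 under every alternative run. The cause of these differences was not tested.

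The sign of 3 genes turned: *Mbp* was at 0.18 with the oligodendrocyte list as a covariate, and *Glul* at 0.01 and *Camk2a* at 0.04 with the astrocyte list. *Mbp* and *Glul* are abundant members of those lists, so the covariate holds their own level and their loss of fold change follows in part from how the fit is built. For *Camk2a* the cause was not tested. None of the 3 was called in any fit. Of 33 genes followed through 30 alternatives each, the other genes kept their direction. Some kept their size too, such as *Abcc5* at 0.23 to 0.30 and *Doc2g* at −0.95 to −0.65, and others did not. With the oligodendrocyte list as a covariate *Adora2a* went from −0.85 to −0.01 and *Fgfr3* from −0.62 to −0.04. *Slc1a2* and *Slc6a11* also shrank with the astrocyte list, which contains them. Over all of these, 843 values stayed on the same side of the threshold, 111 lost a call, 33 gained a call, and among the medians of the 26 lists 736 stayed within the spread of the libraries and 44 moved. The fit without the re-sequenced library is among the 30 alternatives 2 times.

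The groups hold 6 and 5 mice, and 1 HD library comes from another run. The labels give no sex. Enrichment does not show in which cell a transcript was made, and counts per gene do not separate the *Htt* alleles. Low transcripts such as *Tmc3*, with at most 1.45 CPM in the PV+ IPs, rest on few counts.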

Other observations

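Enriched genes differed widely in how far they exceeded total RNA. Among 455 enriched genes with a mean of at least 100 CPM in the IPs, the median log2 ratio was 1.43, and some genes, chosen after their values were seen, lay at 3.48 to 5.10. *Cog7*, a subunit of a Golgi tethering complex, was at 1189 to 2402 CPM in the 11 PV+ IPs and 42.9 to 52.1 CPM in the 6 total RNA libraries, a log2 ratio of 5.10. *Taf1*, a subunit of a general transcription factor, had 226 to 523 and 4.88 to 17.7 CPM, and *Ahdc1* 1102 to 1961 and 54.6 to 70.1 CPM. The other genes described are *Rock2*, *Golga4*, *Spp1*, *Eif3a*, *Macf1* and *Dst*.

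Most of these genes had overlapping levels in IPs of SST+ interneurons. In a joint normalization *Cog7* was at 903 to 1783 CPM in HD and 494 to 2161 CPM in control SST+ IPs, whose ranges overlap those of PV+ IPs, and at 189 to 518 CPM in Gad2+ IPs. *Spp1*, which encodes the secreted protein osteopontin, was the exception, at 126 to 403 CPM in PV+ and 39.6 to 76.2 CPM in SST+ IPs. None of these genes was called between HD and control mice by the quasi-likelihood test of edgeR with Benjamini-Hochberg adjustment, and why their ratios are high was not tested.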
